A study of Mus musculus with 24 samples.

Results

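The basophil and mast cell genes *Mcpt8*, *Prss34*, *Cpa3*, *Fcer1a*, *Ms4a2*, *Gata2*, *Hdc* and *Kit* were followed in bone marrow-derived dendritic cells (BMDCs) lacking the RNA-binding protein TTP. These 8 genes were chosen by name and were matched by the gene names in 4 tables, 1 for each time of lipopolysaccharide (LPS), which together held 23394 gene IDs. All 8 had a value in each of the 24 libraries. TTP, encoded by *Zfp36*, binds mRNAs and promotes their decay, and LPS is a bacterial cell wall component that activates dendritic cells through Toll-like receptor signaling. The study asked how TTP shapes the transcriptome of dendritic cells before and during such stimulation.

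BMDCs were grown with GM-CSF from the bone marrow of C57BL/6 mice aged 9 to 12 weeks, either wild-type (WT) or *TTP*-/-. Cells were left untreated (0 h) or received 10 ng/ml LPS for 3, 6 or 9 h, and polyA RNA was sequenced from 3 replicates in each of the 8 groups of genotype and time. The *TTP*-/- mice lacked the gene in every cell type and not only in dendritic cells, and the libraries were made from whole cultures. The replicates are biological triplicates according to the methods, but neither the labels nor the methods say whether each came from a different animal. The p-values therefore set differences between groups against the spread of libraries, which may not be the spread of animals. *TTP*-/- and WT cells were compared at each time, and each genotype was compared between 0 h and each time of LPS.

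Basophils and mast cells arise from bone marrow progenitors and carry the high-affinity IgE receptor FcεRI, whose crosslinking releases stored histamine and proteases. The transcription factor GATA2 is required for both lineages. In the mouse, mast cells depend on the receptor tyrosine kinase KIT, whereas the protease mMCP-8, encoded by *Mcpt8*, marks basophils.

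The libraries held 19966708 to 25553546 reads assigned to genes, with a median of 22559946. Each library had a mean correlation of 0.980 to 0.989 across genes with the others of its group. The *Zfp36* level of every *TTP*-/- library was below that of every WT library at each time, for example at most 102 against at least 201 FPKM at 0 h. Its decrease passed the test at 0, 3 and 9 h but not at 6 h (limma, log2 fold change −0.50, adjusted p = 0.0629). The tables do not show where in the gene these reads lay. FPKM are reads normalized to gene length and library size, here with the whole span of the gene including introns, and they were scaled separately for each time. Levels are therefore compared between genotypes within a time in FPKM, and between times in RPM, the reads of a gene normalized only to the assigned reads of the library.

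After LPS, all 8 genes were higher in *TTP*-/- than in WT cells. At 0 h, 5 genes were higher (*Mcpt8*, *Prss34*, *Fcer1a*, *Ms4a2* and *Hdc*), against 13.6% of the 13240 genes tested, and *Kit* was lower, against 12.6%. The 2 genes that did not pass the test at 0 h were *Cpa3* and *Gata2*. At 3 h, 8 of 8 were higher and none lower, and the share of higher and of lower genes among those tested was 10.8% each. At 6 h, again 8 of 8 were higher, beside 10.2% higher and 5.07% lower in the transcriptome tested. The count at 9 h was also 8 of 8 higher, beside 16.4% and 14.1%.

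A gene was called where limma on log2(FPKM + 0.1) gave an adjusted p of at most 0.05 over all genes whose mean reached 0.1 FPKM. The median log2 fold change of the 8 genes was 1.06, 1.52, 1.78 and 1.46 at 0, 3, 6 and 9 h, and that of all genes tested lay between −0.040 and −0.023. *Fcer1a* and *Ms4a2* stayed below 0.1 FPKM in every WT library and entered the test through the *TTP*-/- libraries, with *Ms4a2* only just above the filter, so the counts and medians are given as a description. Without any filter on low values, 6, 8, 8 and 7 genes were called at the 4 times. Because of the added 0.1, log2 fold changes understate the change of genes with low FPKM, and ratios of the mean FPKM are given beside them. In RNA from whole cultures, more cells of a type and more RNA per cell cannot be told apart.

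**Figure D1:**
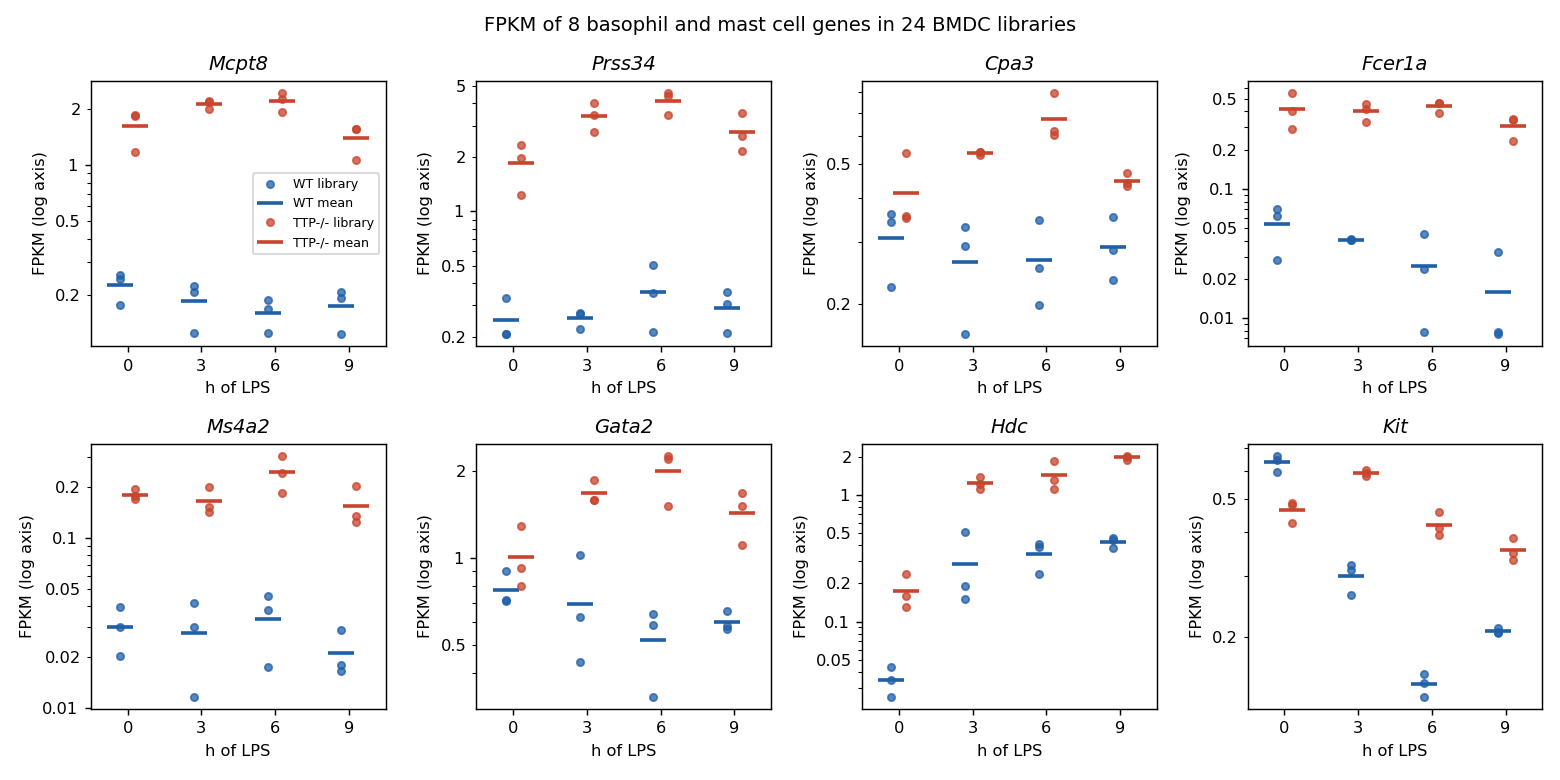
FPKM on a log axis against h of LPS for each of the 8 genes. Points are single libraries, WT in blue and *TTP*-/- in red, and horizontal bars are the means of 3 libraries. Since FPKM were scaled separately for each time, genotypes are to be compared within a time. The groups overlap only for *Cpa3* and *Gata2* at 0 h, and *Kit* is the only gene with its WT libraries on top at 0 h.

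*Mcpt8* (ENSMUSG00000022157, chr14:56082166-56085273 in GRCm38) encodes mMCP-8, a serine protease of basophil granules. At 0 h, WT libraries held 0.254, 0.177 and 0.243 FPKM and *TTP*-/- libraries 1.17, 1.86 and 1.82 FPKM. At 6 h, the WT values were 0.188, 0.124 and 0.168 FPKM and the *TTP*-/- values 1.93, 2.43 and 2.27 FPKM. The lowest *TTP*-/- library thus lay several-fold above the highest WT library at both times. *Mcpt8* mean FPKM was 7.20-fold, 11.5-fold, 13.8-fold and 8.0-fold higher in *TTP*-/- cells at 0, 3, 6 and 9 h. The log2 fold change was 2.38 ± 0.20 (SE) at 0 h and 3.15 ± 0.14 at 6 h (limma, adjusted p = 0.000908 and 0.000165). The WT levels rested on 8 to 19 reads per library and the *TTP*-/- levels on 67 to 185.

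*Prss34* (ENSMUSG00000056399, chr17:25298394-25300165) encodes mMCP-11, a tryptase-like protease that in the mouse is made mainly by basophils. Its values at 0 h were 0.208, 0.330 and 0.209 FPKM for WT, against 1.24, 1.97 and 2.35 FPKM for *TTP*-/- libraries. At 6 h they were 0.350, 0.214 and 0.502 FPKM against 3.43, 4.55 and 4.39 FPKM. No WT library came near a *TTP*-/- library at any time. *Prss34* mean FPKM was 7.44-fold, 13.3-fold, 11.6-fold and 9.48-fold higher in *TTP*-/- cells at the 4 times. On the log2(FPKM + 0.1) scale, its log2 fold change of 3.29 ± 0.15 (SE) at 3 h was the highest of the 8 genes at any time (limma, adjusted p = 0.000202). From summed reads scaled by library size, *Prss34* was 13.2-fold higher at 3 h. On that measure *Fcer1a*, with few WT reads, was 17-fold and 19.8-fold higher at 6 and 9 h.

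The ratio of the basophil proteases to each other overlapped between genotypes. Per read of *Mcpt8*, WT libraries held 0.474 to 1.08 reads of *Prss34* at 0 h and *TTP*-/- libraries 0.612 to 0.747. The ranges overlapped at all 4 times (exact two-sided permutation test over 3 against 3 libraries, p = 1, 0.7, 0.9 and 0.3). Such a test cannot give a p below 0.1, and a p above the threshold does not show that the ratios are equal.

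*Cpa3* (ENSMUSG00000001865, chr3:20215620-20242181) encodes carboxypeptidase A3, a granule protease of mast cells that basophils also express. At 0 h its groups overlapped, with 0.341, 0.223 and 0.361 FPKM for WT, against 0.356, 0.536 and 0.350 FPKM for *TTP*-/- libraries (log2 fold change 0.33 ± 0.20, 95% interval −0.16 to 0.82, limma, adjusted p = 0.284). At 3 h the WT libraries spread over 0.164, 0.292 and 0.331 FPKM, while the *TTP*-/- libraries lay close together at 0.542, 0.541 and 0.530 FPKM. At 6 h the values were 0.346, 0.198 and 0.253 against 0.619, 0.795 and 0.603 FPKM, the widest separation of this gene.

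*Cpa3* mean FPKM was 2.05-fold, 2.53-fold and 1.54-fold higher in *TTP*-/- cells at 3, 6 and 9 h (limma, adjusted p = 0.0276, 0.0108 and 0.0293). The calls at 3 and 9 h were weak. At 3 h the call was lost on leaving out WT replicate 2 or any 1 of the *TTP*-/- replicates (adjusted p of 0.0668 to 0.0915), and at 9 h on leaving out any library but WT replicate 2 (0.066 to 0.0891).

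Reads of *Cpa3* and *Mcpt8* shifted against each other within the libraries. At 0 h each WT library held 10.9 to 12.9 reads of *Cpa3* per read of *Mcpt8*, and each *TTP*-/- library 1.67 to 2.66. At 9 h the ratio was 10.6 to 20.1 in WT and 2.47 to 3.54 in *TTP*-/- libraries. The groups did not overlap at any of the 4 times (exact permutation p = 0.1 at each, the smallest that 3 against 3 libraries allow). This ratio is taken within a library and does not depend on how libraries were scaled.

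*Fcer1a* (ENSMUSG00000005339, chr1:173221284-173227214) encodes the IgE-binding α chain of FcεRI. At 0 h, WT libraries held 0.0619, 0.0281 and 0.0702 FPKM, from 9, 4 and 9 reads, and *TTP*-/- libraries 0.402, 0.552 and 0.289 FPKM, from 61, 80 and 45 reads. At 9 h, WT libraries held 1, 4 and 1 reads and *TTP*-/- libraries 48, 29 and 51. The gene was thus near the limit of detection in WT cells and well above it in *TTP*-/- cells.

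From the summed reads, scaled by library size, *Fcer1a* was 7.77-fold higher in *TTP*-/- cells at 0 h (95% interval 4.98 to 12.7), 17-fold at 6 h (9.05 to 36.1) and 19.8-fold at 9 h (8.85 to 54.9). These intervals cover counting error only. Single WT libraries moved the ratio, to 27.8 at 6 h without WT replicate 1 (10.7 to 103) and to 40.4 at 9 h without WT replicate 2 (11 to 337), which left 4 and 2 WT reads. On the log2(FPKM + 0.1) scale the change was 1.72 ± 0.225 (SE) at 0 h and 2.11 ± 0.15 at 6 h (limma, adjusted p = 0.00306 and 0.000425). Since *Fcer1a* passed the filter only through its *TTP*-/- libraries, these p-values are given as a description.

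*Ms4a2* (ENSMUSG00000024680, chr19:11615523-11623719) encodes the β chain of FcεRI, which amplifies signaling from the receptor in basophils and mast cells. Its values at 0 h were 0.0299, 0.0203 and 0.0395 FPKM for WT, against 0.177, 0.170 and 0.195 FPKM for *TTP*-/- libraries. At 6 h they were 0.0377, 0.0173 and 0.0455 against 0.243, 0.307 and 0.185 FPKM. As for the α chain, every *TTP*-/- library was above every WT library at all 4 times. WT libraries held 2 to 8 reads of *Ms4a2* and *TTP*-/- libraries 21 to 63, and the summed reads gave a 6.11-fold difference at 0 h (95% interval 3.65 to 10.9) and a 7.37-fold difference at 6 h (4.50 to 12.8). On the log2(FPKM + 0.1) scale these were 1.11 ± 0.135 and 1.36 ± 0.172 (SE, limma, adjusted p = 0.00252 and 0.00358). *Ms4a2* also passed the filter only through its *TTP*-/- libraries, so its p-values are a description too.

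*Hdc* (ENSMUSG00000027360, chr2:126593667-126619299) encodes histidine decarboxylase, the enzyme that makes histamine. At 0 h the WT libraries held 0.0255, 0.0439 and 0.0343 FPKM and the *TTP*-/- libraries 0.131, 0.160 and 0.235 FPKM. At 3 h the WT libraries held 0.506, 0.189 and 0.151 FPKM and the *TTP*-/- libraries 1.12, 1.37 and 1.22 FPKM. At 9 h the values were 0.382, 0.460 and 0.437 against 2.00, 2.03 and 1.89 FPKM. WT replicate 1 at 3 h was high for its group, yet the genotypes did not overlap.

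*Hdc* mean FPKM was 5.07-fold, 4.39-fold, 4.16-fold and 4.64-fold higher in *TTP*-/- cells at 0, 3, 6 and 9 h. Without WT replicate 1 the ratio at 3 h was 7.29. The log2 fold change was 1.02 ± 0.18 (SE) at 0 h and 1.98 ± 0.09 at 9 h (limma, adjusted p = 0.00906 and 9.4e-05). At 3 h (1.92 ± 0.34, adjusted p = 0.0125) it was lost by a small margin without WT replicate 2 or *TTP*-/- replicate 3 (0.0524 and 0.0517).

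*Gata2* (ENSMUSG00000015053, chr6:88193891-88207032) encodes the transcription factor GATA2. Its groups overlapped at 0 h, with 0.717, 0.903 and 0.711 FPKM for WT, against 0.801, 0.925 and 1.29 FPKM for *TTP*-/- libraries (log2 fold change 0.32 ± 0.19, 95% interval −0.13 to 0.77, limma, adjusted p = 0.264). At 3 h the values were 1.02, 0.625 and 0.438 against 1.59, 1.58 and 1.85 FPKM, and WT replicate 1 was again the highest of its group. At 6 h they were 0.332, 0.641 and 0.586 against 1.51, 2.25 and 2.20 FPKM, with no overlap.

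*Gata2* mean FPKM was 2.41-fold, 3.83-fold and 2.38-fold higher in *TTP*-/- cells at 3, 6 and 9 h. The log2 fold changes were 1.22 ± 0.26, 1.77 ± 0.25 and 1.11 ± 0.15 (SE, limma, adjusted p = 0.0243, 0.00582 and 0.00306). At 3 h it was no longer called on leaving out WT replicate 2 or any 1 of the *TTP*-/- replicates (adjusted p of 0.0701 to 0.090). WT replicate 1 at 3 h, which was high for *Hdc* and *Gata2*, was the lowest of its group for *Cpa3* and *Mcpt8*.

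*Kit* (ENSMUSG00000005672, chr5:75574916-75656722) encodes the receptor for stem cell factor and was the gene whose genotype difference changed sign. At 0 h the WT libraries held 0.596, 0.644 and 0.663 FPKM and the *TTP*-/- libraries 0.424, 0.478 and 0.486 FPKM, so that every WT library was higher. At 3 h the WT libraries held 0.265, 0.323 and 0.312 FPKM and the *TTP*-/- libraries 0.604, 0.593 and 0.582 FPKM. At 6 h the values were 0.157, 0.148 and 0.135 against 0.456, 0.412 and 0.394 FPKM, and now every *TTP*-/- library was higher.

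*Kit* mean FPKM was 1.37-fold lower in *TTP*-/- cells at 0 h, and 1.98-fold, 2.87-fold and 1.71-fold higher at 3, 6 and 9 h. The log2 fold change was −0.38 ± 0.10 at 0 h (SE, limma, adjusted p = 0.0341) and 0.80 ± 0.08, 1.08 ± 0.11 and 0.56 ± 0.09 at 3, 6 and 9 h (adjusted p = 0.00248, 0.00138 and 0.00424). The call at 0 h was fragile. It was lost on leaving out any library but *TTP*-/- replicate 3 (adjusted p of 0.0803 to 0.12) and with libraries rescaled to the same sum of FPKM (log2 fold change −0.28, adjusted p = 0.14), whereas its direction stayed. Each library held 236 or more reads of *Kit*, so counting error was small.

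**Figure D2:**
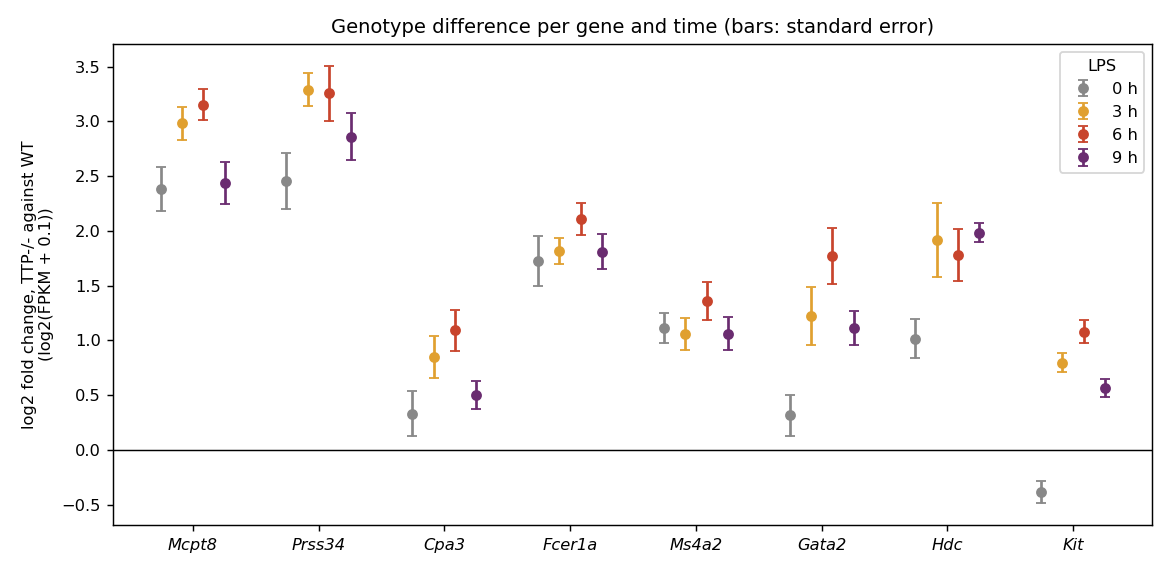
Log2 fold change of *TTP*-/- against WT cells on log2(FPKM + 0.1) for each gene, with 1 point for each time of LPS and bars of 1 standard error from limma on 6 libraries. *Mcpt8* and *Prss34* lie highest at every time on this scale, between 2.38 and 3.29, and the added 0.1 lowers the values of genes with low FPKM. *Kit* is the only gene below 0, at −0.38 at 0 h.

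The genotype difference itself differed between times for *Kit* and, at 6 h, for *Gata2*. In 1 fit of all 24 libraries, the log2 fold change of *Kit* was larger than at 0 h by 1.18 ± 0.11 (SE) at 3 h, 1.46 ± 0.11 at 6 h and 0.95 ± 0.11 at 9 h (limma interaction, adjusted p = 2.72e-06, 2.28e-07 and 1.67e-05). That of *Gata2* was larger by 1.45 ± 0.345 at 6 h (adjusted p = 0.0117). The genes called were thus 1 of 8 at 3 h, 2 of 8 at 6 h and 1 of 8 at 9 h, where 4.91%, 8.38% and 9.41% of all 13153 genes were called.

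No other difference between times was called. For *Gata2* the values at 3 and 9 h were 0.91 and 0.80 (limma, adjusted p = 0.17 and 0.178). *Hdc* had interaction values of 0.90 ± 0.35, 0.76 ± 0.35 and 0.96 ± 0.35 at 3, 6 and 9 h (SE, limma, adjusted p = 0.185, 0.228 and 0.0981), and they depended on the number added before the logarithm. Without WT replicate 1 at 3 h, the value at 3 h was 1.29 and was called (adjusted p = 0.0067). With 1 FPKM added, the 3 values of *Hdc* were 0.63, 0.66 and 0.88 and were called, while with voom on reads those at 6 and 9 h were −0.25 and −0.096 and were not called. *Mcpt8* had 0.60, 0.77 and 0.056 (95% interval −0.50 to 0.61 at 9 h, limma, adjusted p = 0.27, 0.0866 and 0.935).

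The same pattern was read over time within each genotype in RPM. LPS moved most of the transcriptome, and 2, 4 and 3 of the 8 genes were called at 3, 6 and 9 h against 0 h in WT cells, where 62.4%, 67.4% and 64.8% of all genes were called. In *TTP*-/- cells the counts were 4, 4 and 2 of 8, against 61.6%, 66.4% and 65.2% of all genes. With quantile normalization 2, 3 and 5 of 8 were called in WT cells, where 48.5%, 50.4% and 52% of all genes were called, and 6, 7 and 4 of 8 in *TTP*-/- cells, where 51.5%, 56.4% and 56% were called. The 3 comparisons of a genotype share its 0 h libraries.

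In RPM the median of all genes fell by 0.44, 0.54 and 0.52 on the log2 scale at 3, 6 and 9 h in WT cells and by 0.39, 0.48 and 0.47 in *TTP*-/- cells. With quantile normalization these medians lay between −0.084 and −0.039. Changes over time are therefore given with both scalings.

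*Hdc* rose after LPS in both genotypes. In WT cells it went from 0.626, 1.11 and 0.834 RPM at 0 h to 9.63, 10.8 and 11.1 RPM at 9 h. In *TTP*-/- cells it went from 3.52, 4.24 and 6.43 RPM to 53.5, 53.7 and 52.3 RPM. The mean was thus 12.3-fold higher at 9 h than at 0 h in WT and 11.2-fold higher in *TTP*-/- cells, and the highest WT library after LPS (12.5 RPM) was below every *TTP*-/- library after LPS.

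The log2 change of *Hdc* was 2.70, 3.14 and 3.50 at 3, 6 and 9 h in WT and 2.83, 3.01 and 3.51 in *TTP*-/- cells (SE 0.31 each, limma, adjusted p of 1.75e-07 or less). With quantile normalization it was 3.17, 3.73 and 4.03 in WT and 3.37, 3.63 and 4.12 in *TTP*-/- cells.

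*Kit* fell after LPS in WT cells. It went from 46.8, 52.1 and 51.5 RPM at 0 h to 20.9, 25.2 and 24.5 RPM at 3 h, 12.7, 11.2 and 10.3 RPM at 6 h and 16.5, 15.9 and 16.7 RPM at 9 h. The WT groups of the 4 times did not overlap, with the lowest values at 6 h. Relative to 0 h, mean RPM was 2.13-fold, 4.39-fold and 3.05-fold lower (log2 change −1.09, −2.13 and −1.61, SE 0.10, limma, adjusted p = 8.19e-09, 7.6e-14 and 1.37e-11). With quantile normalization the decreases were −0.72, −1.58 and −1.12 and remained called.

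In *TTP*-/- cells the level of *Kit* after LPS lay above that of WT cells at the same time and moved less from its 0 h level. The libraries held 36.3, 40.5 and 42.5 RPM at 0 h, 51.6, 50.8 and 50.7 RPM at 3 h, 39.0, 35.4 and 34.4 RPM at 6 h and 29.7, 28.0 and 34.1 RPM at 9 h. The log2 change was 0.36 at 3 h, −0.13 at 6 h and −0.38 at 9 h (SE 0.10, limma, adjusted p = 0.00432, 0.274 and 0.00277). The rise at 3 h was called with both scalings (0.75 with quantile normalization), but the value at 6 h became 0.34 and was called (adjusted p = 0.00515) and the value at 9 h turned to 0.089 and was not called (adjusted p = 0.466).

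**Figure D3:**
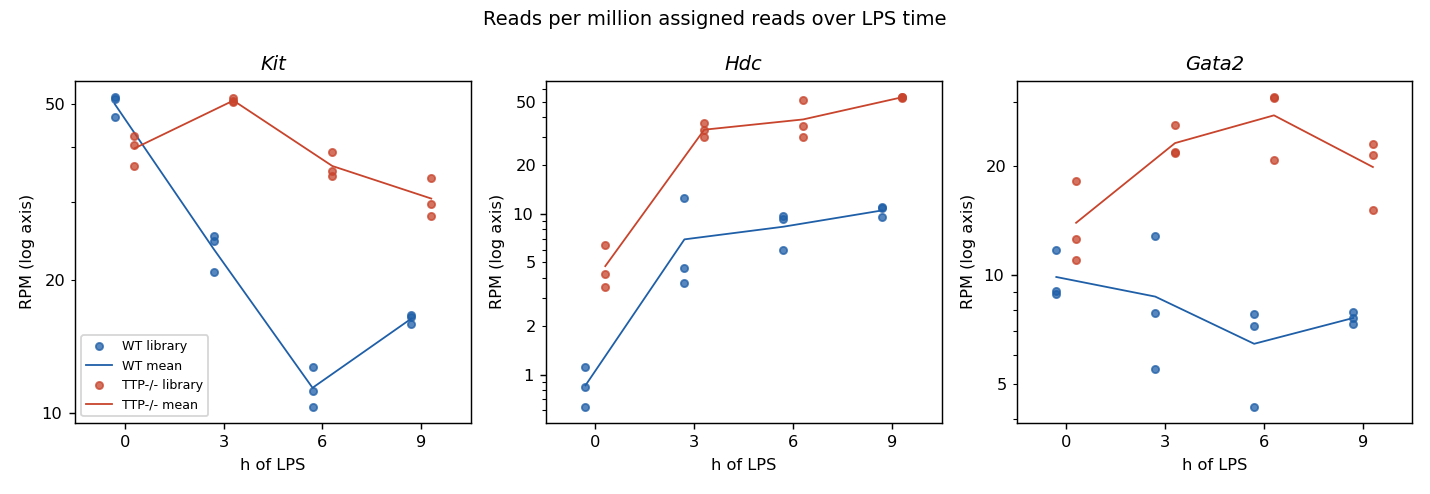
RPM on a log axis against h of LPS for *Kit*, *Hdc* and *Gata2*. Points are single libraries and lines join the means of 3 libraries, WT in blue and *TTP*-/- in red. *Kit* drops from a mean of 50.1 to 11.4 RPM between 0 and 6 h in WT cells and stays at 30.6 RPM or more in *TTP*-/- cells, while *Hdc* rises in both genotypes.

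*Gata2* was lower in WT cells and higher in *TTP*-/- cells at 6 h than at 0 h in RPM, the former turning sign with quantile normalization. In WT cells it was lower than at 0 h (log2 change −0.64 ± 0.26, SE, limma, adjusted p = 0.0338), with 4.31, 7.82 and 7.23 RPM at 6 h against 9.04, 11.7 and 8.87 RPM at 0 h. In *TTP*-/- cells it was higher (0.99 ± 0.26, adjusted p = 0.00192), with 20.8, 31.1 and 30.9 RPM against 11, 12.6 and 18.2 RPM. The decrease in WT cells turned to 0.10 with quantile normalization (adjusted p = 0.759) and was lost without WT replicate 2 at 0 h or WT replicate 1 at 6 h (adjusted p = 0.128 and 0.215). The increase in *TTP*-/- cells was called with both scalings (1.66 with quantile normalization). At 3 h *Gata2* was higher than at 0 h in *TTP*-/- cells by 0.76 (adjusted p = 0.0151), a call lost without *TTP*-/- replicate 1 at 0 h or replicate 3 at 3 h (0.0801 and 0.0574).

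Of the remaining genes, *Prss34* rose in *TTP*-/- cells at 3 and 6 h (log2 change 0.89 and 1.17 in RPM, SE 0.28, limma, adjusted p = 0.00775 and 0.000707). Without *TTP*-/- replicate 1 at 0 h, the lowest of its group, the rise at 3 h was 0.63 and no longer called (adjusted p = 0.0691). *Cpa3* rose at 6 h in *TTP*-/- cells (0.72 ± 0.24, adjusted p = 0.0114), a call lost without *TTP*-/- replicate 1 at 0 h or *TTP*-/- replicate 2 at 6 h (0.0506 and 0.0599). *Fcer1a* was lower in WT cells at 6 and 9 h (−0.77 and −1.11, SE 0.32, adjusted p = 0.0408 and 0.00452), where it rested on 1 to 6 reads per library. Its call at 6 h was lost with quantile normalization (−0.38, adjusted p = 0.373) and on leaving out any 1 of 4 libraries, and both calls were lost with a pseudocount of 1 (adjusted p = 0.229 and 0.1). *Mcpt8* and *Ms4a2* were called at no time in either genotype in RPM. With quantile normalization *Mcpt8* was called in *TTP*-/- cells at 3 and 6 h (0.93 and 1.11) and *Ms4a2* at 6 h (0.80).

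Levels of different genes were compared on FPKM recomputed with the length of the exons. Whether reads in introns were counted is not known. If they were, this scaling overstates genes with long introns, such as *Kit* (81807 bases, 8911 of them in exons) and *Cpa3* (26562 and 1517). In WT cells at 0 h, *Kit* (5.82 ± 0.32, SD, n = 3) and *Cpa3* (5.39 ± 1.31) were highest, and their ranges of 1 SD around the mean overlapped. *Gata2* followed at 1.89 ± 0.27, *Mcpt8* at 0.687 ± 0.126, *Prss34* at 0.361 ± 0.101 and *Fcer1a* at 0.317 ± 0.133, of which the last pair overlapped. *Hdc* and *Ms4a2* were lowest at 0.139 ± 0.037 and 0.0871 ± 0.028, and their ranges of 1 SD overlapped.

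In *TTP*-/- cells at 0 h the order on exon length was *Cpa3* (7.25 ± 1.85, SD, n = 3), *Mcpt8* (4.94 ± 1.19) and *Kit* (4.25 ± 0.31). The range of 1 SD of *Mcpt8* overlapped that of *Cpa3* and that of *Kit*. *Prss34* (2.68 ± 0.82), *Fcer1a* (2.46 ± 0.78) and *Gata2* (2.45 ± 0.62) had overlapping ranges of 1 SD. *Mcpt8* thus stood above *Gata2* in *TTP*-/- cells and below it in WT cells. At 6 h *Cpa3* had the highest mean in both genotypes, at 11.8 ± 1.87 in *TTP*-/- and 4.65 ± 1.31 in WT cells.

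Promoter windows of RefSeq (GRCm38.p6, 250 bases before to 50 after the start of transcription) were found for all 8 genes, in 10 windows. They were searched on both strands for the letters AGATAA and TGATAA, 2 forms of the motif bound by GATA factors. Within the window, *Ms4a2* held 3 matches and *Fcer1a*, *Cpa3* and *Prss34* held 1 each, while *Mcpt8*, *Hdc* and both windows of *Gata2* and *Kit* held none. Of all 32851 promoters, 18.6% held a match, and 6.17% held one in the 100 bases before the start. The 100 bases before the start are shown for the 4 genes with a match there, 5′ to 3′ on the strand of the gene. Matches are in capitals. *Mcpt8*, *Hdc*, *Gata2* and *Kit*, which held no match, were also higher in *TTP*-/- cells after LPS. Whether matches relate to the difference between genotypes was not tested. A reverse-strand match reads as TTATCT or TTATCA.
Ms4a2, chr19:11623720-11623819 (- strand): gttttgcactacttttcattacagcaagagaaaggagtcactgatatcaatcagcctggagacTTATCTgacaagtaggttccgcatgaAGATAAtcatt
Fcer1a, chr1:173227230-173227329 (- strand): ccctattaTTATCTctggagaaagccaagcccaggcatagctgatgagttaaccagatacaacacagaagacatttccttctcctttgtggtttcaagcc
Cpa3, chr3:20242182-20242281 (- strand): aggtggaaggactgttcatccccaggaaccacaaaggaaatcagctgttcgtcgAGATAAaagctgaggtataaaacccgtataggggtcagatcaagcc
Prss34, chr17:25298294-25298393 (+ strand): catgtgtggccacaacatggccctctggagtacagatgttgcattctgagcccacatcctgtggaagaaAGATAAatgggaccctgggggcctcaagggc

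Counted from the start of transcription, the first base of the match lay at −31 in *Prss34*, −46 in *Cpa3* and −92 in *Fcer1a*. In *Ms4a2* matches lay at −37 and −11, and at −224 outside the stretch shown. Binding of GATA2 was not measured, and the letters alone describe the sequence and not a site.

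The counts of the gene lists that follow stand beside 13.6%, 10.8%, 10.2% and 16.4% of all genes tested higher at 0, 3, 6 and 9 h. The shares of lower genes were 12.6%, 10.8%, 5.07% and 14.1%. Other genes of basophils and mast cells were split. Of 26 listed, 14 could be tested, of which 6, 5, 7 and 8 were higher and 1, 2, 1 and 2 lower in *TTP*-/- cells at 0, 3, 6 and 9 h, with a median log2 fold change of 0.146, 0.227, 0.345 and 0.655. The largest changes at 6 h were those of *Rab44* (2.83), a gene of granule secretion in mast cells, *Alox5* (2.48), the first enzyme of leukotriene synthesis, *Il13* (2.47), a type 2 cytokine, and *Il1rl1* (2.30), the receptor of IL-33 (limma, adjusted p of 0.0009 or less). *Cd200r3*, a surface receptor of basophils and mast cells, was not called at 0 h and was higher at 3, 6 and 9 h (0.90, 1.08 and 0.89), as *Gata2* and *Cpa3* were.

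Some genes of mast cell granules were lower or near the limit of detection. *Cma1*, which encodes the mast cell chymase mMCP-5, was lower in *TTP*-/- cells at 3, 6 and 9 h (log2 fold change −1.55, −1.27 and −0.97, limma, adjusted p = 0.00478, 0.00631 and 0.00308), with at most 27 reads in a library. *Tpsb2* encodes the mast cell tryptase mMCP-6 and can share reads with its close paralog *Tpsab1*. It was lower at 0 h (−1.68) and 3 h (−0.44), with at most 29 and 30 reads in a library. Its values of −0.52 and −0.73 at 6 and 9 h were not called. *Cma1* and the later values of *Tpsb2* were named after their values were seen. *Mcpt1*, *Tpsg1* and *Mrgprb2* had at most 5 reads in any library where they were listed. For *Mcpt2*, *Mcpt4*, *Mcpt9*, *Tpsab1* and *Mrgprb1* no value was found under these names at any time.

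Genes of FcεRI signaling were more often higher than lower, with 7, 5, 7 and 5 of 13 tested higher and 1, 1, 1 and 2 lower at the 4 times (median 0.483, 0.346, 0.407 and 0.245). The largest at 6 h were *Lat2* (1.73), *Vav1* (1.32), *Lcp2* (1.28) and *Fcer1g* (0.84), the last being the γ chain that FcεRI shares with other Fc receptors. *Fcer1g* stood at 162 ± 5.01 FPKM for WT, against 291 ± 6.53 FPKM for *TTP*-/- cells at 6 h (SD, n = 3) and is widely expressed in myeloid cells.

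GATA-family and progenitor regulators were higher in 7, 8, 9 and 9 of 14 tested and lower in 2, 3, 0 and 0 (median 0.39, 0.59, 0.94 and 0.77). At 6 h *Itga2b* (2.58), *Cebpb* (2.42), *Gfi1b* (2.22) and *Gata1* (2.11) were largest. *Gata1*, a partner and paralog of *Gata2*, went from 0.064 ± 0.019 FPKM in WT to 0.610 ± 0.125 in *TTP*-/- cells at 6 h (SD, n = 3). The WT means of *Gata1* and *Itga2b* were below 0.1 FPKM at all 4 times, so both entered the test through the *TTP*-/- libraries.

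KIT, IL-3 and GM-CSF receptor genes were mixed. Of 11 tested, 2, 1, 3 and 3 were higher and 4, 4, 1 and 3 lower at 0, 3, 6 and 9 h (median −0.37, −0.24, 0.043 and 0.061). At 6 h *Il1rl1* (2.30), *Csf2ra* (0.82) and *Csf2rb2* (0.52), chains of receptors for IL-33, GM-CSF and IL-3, were higher, the last with reads it can share with its close paralog *Csf2rb*, and *Sh2b3* (−0.64), an adaptor that restrains cytokine receptor signaling, was lower. At 0 h *Il18r1* (−1.59), *Jak2* (−1.19) and *Cblb* (−1.10) were lower.

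Markers of other cell types moved with genotype too. All 8 eosinophil markers tested were higher in *TTP*-/- cells at each time (median 2.32, 2.94, 3.22 and 2.71), with summed levels of 63.6 to 118 RPM in WT and 516 to 1010 RPM in *TTP*-/- libraries over all times. Neutrophil markers were higher in 13, 14, 14 and 14 of 14 (median 2.49, 2.80, 2.80 and 2.47), with summed levels of 214 to 787 RPM in WT and 2080 to 5360 RPM in *TTP*-/- libraries. Macrophage markers were higher in 9, 2, 9 and 9 of 10 (median 1.07, 0.98, 1.20 and 2.28), with summed levels of 159 to 502 RPM in WT and 434 to 1270 RPM in *TTP*-/- libraries. Dendritic cell markers were lower in 9, 8, 7 and 12 of 13 and higher in 0, 0, 1 and 1, yet stayed abundant, with summed levels of 19700 to 34900 RPM in WT and 11000 to 26100 RPM in *TTP*-/- libraries. The dendritic cell marker higher at 6 and 9 h was *Itgax* (log2 fold change 0.706 and 1.387, limma, adjusted p = 0.017 and 0.000158). The largest decreases at 6 h were those of *Ciita* (−1.255), *Irf4* (−1.034), *H2-Eb1* (−1.025) and *H2-Aa* (−0.983). The dendritic cell marker *Cd209a*, which did not pass the filter, was at 0 in the 3 WT libraries at 6 h and reached at most 45 reads in any library.

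Summed over the 8 basophil and mast cell genes, the level was 66.8 to 72.2 RPM in WT and 70.7 to 91.0 RPM in *TTP*-/- libraries at 0 h, and 33.8 to 34.8 against 125 to 153 RPM at 6 h. *Kit* made up the largest part of the sums at 0 h, with means of 50.1 RPM in WT and 39.8 RPM in *TTP*-/- libraries. *Mcpt8* held 0.66 and 5.19 RPM. The part of other cell types in the differences between genotypes was not tested.

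**Figure D4:**
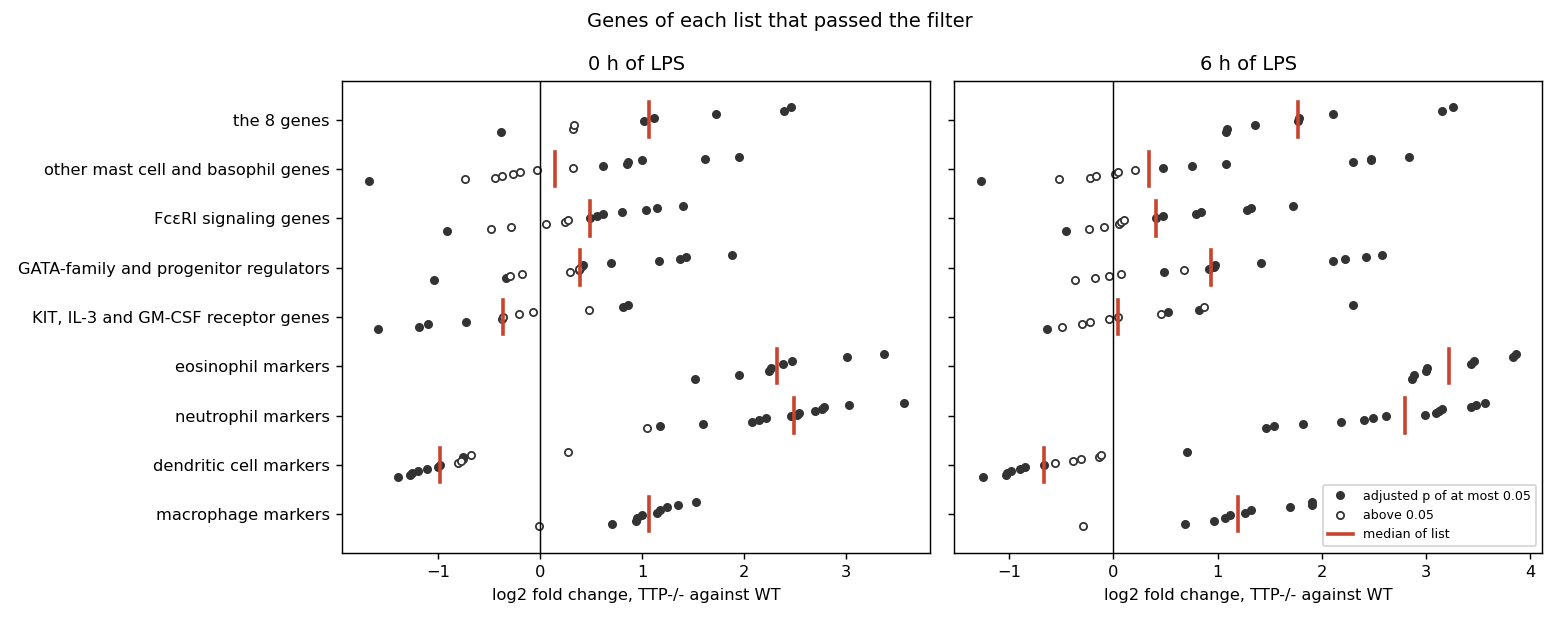
Log2 fold change of *TTP*-/- against WT cells for each gene that passed the filter, at 0 and 6 h of LPS. Rows are gene lists, filled points have an adjusted p of at most 0.05 and red bars are list medians. The 8 basophil and mast cell genes have medians of 1.06 and 1.78, eosinophil markers 2.32 and 3.22 and dendritic cell markers −0.98 and −0.66.

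The genes most like *Mcpt8* across the 24 libraries, each centred on the mean of its time, were *Camp* (Pearson correlation 0.994), *Prg2* (0.992), *Chil3* (0.992), *Cxcr2* (0.990) and *Alox15* (0.990), out of 6095 genes whose mean reached 1 FPKM. *Camp*, *Chil3* and *Cxcr2* are expressed by neutrophils or macrophages, and *Prg2* is a granule protein of eosinophils. The genes most like *Kit* were *Paf1* (0.938), *Mxd1* (0.928), *Trim56* (0.902), *Hsh2d* (0.900) and *Gbp2b* (0.885). These values include the difference between genotypes, and all genes were read in the same libraries.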

How the data were processed

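According to the submitters' processing notes, the authors used cutadapt, the aligner STAR 2.5, the build GRCm38 and DESeq2. The counter and its strand setting are not given in the sources used here. *Mcpt8* and *Cpa3* overlap *Mir6949* and *Mir7007* on the same strand, so no strand setting could separate their reads. The FPKM deposited by the authors are scaled within the 6 libraries of a time, and in 85.8% of 11623 genes they follow the gene span within 1%. The signal deposited as a mean per gene is that of reads divided by size factors, and with it all FPKM values of up to 200 reads came out within 0.05 of a whole read. The authors' fold changes, standard errors, test statistics and p-values were not used.

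Genotypes were compared with limma 3.58.1 (R 4.3.3, mean-variance trend) on log2(FPKM + 0.1) of the 6 libraries of a time, for genes whose mean over 24 libraries reached 0.1 FPKM, with p-values adjusted by Benjamini-Hochberg and called at 0.05. Interactions came from 1 fit of 24 libraries, and times were compared on log2(RPM + 0.1) in 1 fit. Scripts were tested on simulated data. Assigned reads were 19966708 to 25553546 per library. Alternatives covered pseudocounts of 0.01 and 1, filters, quantile normalization, rescaled sums, voom, limma without trend, 1 fit of 24 libraries, an adjusted p of 0.01, the replicate block and leaving out each library; log2(RPM + 0.1) and FPKM on exon length for genotypes, and ratios of levels without each library, were added after seeing the data.

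The genes and lists were chosen with earlier results of these data known. From each list, up to 4 genes past the threshold with the largest change at a time were named, and for likeness the 5 highest correlations. Same-numbered WT and *TTP*-/- libraries deviated together at 6 h (correlation 0.357, 0.136 and 0.303). At 0 h the values were 0.22, −0.394 and −0.285, and at 3 and 9 h they lay between −0.025 and 0.091. Names came from the tables for 16878 of 23394 IDs and from GENCODE M21 for 6261.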

Additional observations from a re-analysis of the deposited data

Results flagged for a closer look

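The genotype difference of *Kit* and *Gata2* differed between times by a test of that difference. For *Kit*, the log2 fold change of *TTP*-/- against WT cells was higher than at 0 h by 1.18 at 3 h, 1.46 at 6 h and 0.949 at 9 h (limma interaction, adjusted p = 2.72e-06, 2.28e-07 and 1.67e-05). All 3 WT libraries were above all 3 *TTP*-/- libraries at 0 h and below them at each later time. For *Gata2*, the difference was higher by 1.45 at 6 h than at 0 h (adjusted p = 0.0117), and the groups overlapped at 0 h only. All 3 comparisons share the 0 h libraries.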

How the results depend on the processing

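All 592 values of the 8 genes between genotypes under other settings kept their direction, and 557 also kept their side of the threshold. Several settings leave the log2 fold change itself as it is, so its direction could not turn there. These were the adjusted p of 0.01, the filters, limma without trend, the replicate block and 1 fit of 24 libraries. The count of genes called between genotypes was 6, 8, 8 and 8 at 0, 3, 6 and 9 h. It was 5 at 3 h with an adjusted p of 0.01, and 3, 4, 4 and 4 with a filter at 0.5 FPKM, which only *Mcpt8*, *Prss34*, *Gata2* and *Hdc* passed. The WT means of *Mcpt8*, *Prss34* and *Hdc* were below 0.5 FPKM at all times. These genes passed that filter through the *TTP*-/- libraries, so the counts with it are a description. Leaving out 1 library gave 5 to 6, 5 to 8, 8 to 8 and 7 to 8, the 5 at 3 h without WT replicate 2 or *TTP*-/- replicate 3. The count of genes whose genotype difference changed from 0 h was 1, 2 and 1 at 3, 6 and 9 h. It was 2, 5 and 2 with a pseudocount of 1, 0, 1 and 0 with the filter at 0.5 FPKM and 1 at 6 h with an adjusted p of 0.01. Leaving out 1 library gave 1 to 3, 2 to 3 and 1 to 1, the 3 at 3 h without WT replicate 1 at 3 h.

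Over time, WT counts of 2, 4 and 3 became 2 at 6 h with an adjusted p of 0.01 and 5 at 9 h with quantile normalization, and 2 to 2, 3 to 4 and 3 to 3 on leaving out 1 library. The *TTP*-/- counts of 4, 4 and 2 became 6, 7 and 4 with quantile normalization, and 2 to 4, 3 to 4 and 2 to 4 on leaving out 1 library, the 2 at 3 h without replicate 1 at 0 h and the 4 at 9 h without replicate 3 at 0 h or replicate 2 at 9 h. Directions turned for *Hdc* in the difference between times, to −0.0074 at 6 h with a pseudocount of 0.01, −0.12 at 6 h in RPM and −0.25 at 6 h and −0.096 at 9 h with voom, for *Gata2* in WT cells at 6 h (0.10) and for *Kit* in *TTP*-/- cells at 9 h (0.089), both with quantile normalization. The cause was not tested, except that fewer genes were tested with the stricter filter.

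With the replicate number as a block, 5, 6, 8 and 7 genes were called between genotypes. *Kit* at 0 h (adjusted p = 0.136), *Cpa3* and *Gata2* at 3 h (0.0609 and 0.065) and *Cpa3* at 9 h (0.0623) lost their call. At 6 h, where same-numbered WT and *TTP*-/- libraries deviated together, the block changed no call, and the block moved no count over time or between times. Whether the numbers mark pairs of libraries is not known. Depth limits *Fcer1a* and *Ms4a2* in WT cells, which rested on 1 to 9 reads per library.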

Other observations

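Several other genes of these cell types were below the filter on low values and are given as means of 3 libraries with no test, chosen after their values were seen. *Il4*, a type 2 cytokine made by basophils, had 0.0321, 0.0144, 0.030 and 0.0198 FPKM at 0, 3, 6 and 9 h for WT, and 0.0867, 0.0947, 0.161 and 0.122 FPKM for *TTP*-/- libraries. *Hpgds*, which encodes a prostaglandin D synthase of mast cells, had 0.0296 FPKM at 0 h for WT and 0.0931 FPKM for *TTP*-/- libraries. *Hnmt*, the enzyme that inactivates histamine, had 0.905 RPM at 0 h and 0.0154 RPM at 9 h for WT, and 6.14 and 0.434 RPM for *TTP*-/- libraries. *Slc18a2*, the transporter that loads histamine into granules, had 0.0541 FPKM at 0 h for WT and 0.0844 FPKM for *TTP*-/- libraries.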
